A study of Mus musculus with 66 samples.

Results

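The genes of fatty acid oxidation and of the peroxisome were followed in mouse small intestinal organoids grown in 3 cultures. Members were the rows of the expression table whose gene symbol names an acyl-CoA oxidase, dehydrogenase, thiolase, synthetase or thioesterase (Acox, Acad, Acaa, Acsl, Acsm, Acss, Acot), a hydroxyacyl-CoA dehydrogenase, enoyl-CoA isomerase or multifunctional enzyme (Hadh, Ech, Eci, Ehhadh), or a peroxin (Pex and a number). This gave 63 transcripts of 59 genes among 9481 transcripts of 8978 gene symbols, and the rule itself uses no measured value. They comprised 9 transcripts of acyl-CoA synthetases, 10 of acyl-CoA dehydrogenases, 5 of mitochondrial hydratases, isomerases and thiolases, 12 of peroxisomal oxidation enzymes, 11 of thioesterases and 16 of peroxins. Acad11, counted with the dehydrogenases, and Ech1 and Eci2, counted with peroxisomal oxidation, are assigned to both mitochondria and peroxisomes. Of the 63, 62 were tested, and Acot10, with at most 2 counts in any library, was not.

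All cultures were of organoids that, per the study's methods, carry a GFP and DTR cassette in 1 allele of Lgr5. ENR organoids grew in medium with EGF, Noggin and R-Spondin and hold a mixture of epithelial cells. CV organoids grew for 5 days with 3 µM CHIR99021 (a GSK3 inhibitor that activates Wnt signaling) and 1 mM valproic acid (a histone deacetylase inhibitor) added to ENR medium, which enriches stem cells. EN organoids grew for 2.5 days without R-Spondin, which depletes stem cells, so the cultures differ in added drugs and in time as well as in cell content. Analysed here for each culture were 4 libraries of RNA-seq, 4 of ATAC-seq, 3 each of H3K27ac, H3K4me3 and H3K27me3 ChIPmentation (a form of ChIP that adds adapters by tagmentation) and 1 of Hnf4g ChIPmentation. No label says that libraries came from separate animals or organoid lines, so p-values measure the spread between these libraries, which may be technical.

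Fatty acids enter metabolism once an acyl-CoA synthetase has joined them to coenzyme A. Beta-oxidation then shortens the acyl-CoA by repeated rounds of oxidation, hydration, a second oxidation and thiolytic cleavage. Mitochondria carry out the bulk of this for long and medium chains, whereas peroxisomes, organelles that peroxins build and fill with enzymes, start on very long and branched chains and release hydrogen peroxide. Thioesterases run the reverse of activation and release free fatty acids. Enterocytes, the absorptive cells of the villus, take up dietary lipid, and nuclear receptors such as Ppara and the Hnf4 factors are known regulators of many of these genes.

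RNA libraries held 5630977 to 8859757 expected counts without spike-ins, so that 3 counts correspond to 0.339 to 0.533 CPM (counts scaled to library size after TMM normalization). Levels of 1 gene are given below as CPM, and levels of different genes are compared as TPM, which is scaled to transcript length. All 9 transcripts of the 8 stem cell markers were lower in EN than in CV, and all 12 enterocyte markers were higher. Between CV and ENR, 2 of the 9 stem cell transcripts were higher in CV and 5 lower, so this list does not set CV above ENR as the label of a stem cell culture would. Markers of other cells moved too, since all 6 goblet, 5 enteroendocrine and 4 tuft markers in the table were higher in EN than in CV, and of 5 Paneth markers 2 were higher and 3 lower. Against ENR, all 6 goblet, 5 enteroendocrine and 4 tuft markers were again higher in EN, and all 5 Paneth markers were lower. Summed over each list, TPM in CV, ENR and EN libraries lay at 329.7 to 367.3, 966.3 to 1055 and 20.0 to 22.9 for stem cell markers, at 20160 to 21270, 10950 to 12660 and 59890 to 67030 for enterocyte markers, at 1686 to 1807, 3059 to 3252 and 10530 to 12570 for goblet markers, and at 5941 to 6655, 14790 to 16210 and 5200 to 5638 for Paneth markers. Single genes carried the sums between CV and ENR. Without Olfm4, which averaged 10.9 CPM in CV and 1229 in ENR, stem cell markers summed to 325.2 to 354 TPM in CV and 312.5 to 327.1 in ENR, and without Fabp1 enterocyte markers summed to 4348 to 4602 and 4730 to 5536 TPM, while by transcript 4 of the 12 enterocyte markers were higher and 7 lower in CV than in ENR. Non-epithelial markers stayed at a summed 0.310 to 2.51 TPM in every library. In such bulk samples fewer cells of a type and less RNA per cell cannot be told apart, and the part of cell composition in the results below was not tested.

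The members together took a larger share of the RNA in EN than in either other culture. Their summed TPM was 6845, 6751, 6849 and 6860 in the CV libraries, 4421, 4361, 4420 and 4470 in the ENR libraries and 8772, 8677, 8572 and 8673 in the EN libraries. The 3 cultures did not overlap, and CV lay between ENR and EN. Peroxisomal oxidation enzymes went from 957 ± 28.0 TPM in ENR and 1305 ± 20.6 in CV to 2126 ± 53.1 in EN (mean ± SD, n = 4). Synthetases reached 617 ± 5.19, 1055 ± 33.3 and 1738 ± 47.6 TPM in ENR, CV and EN. Their EN sum rests on 1 gene, Acsl5, which held 57.2%, 60.2% and 88.7% of it in ENR, CV and EN. Of the 9 synthetases, 6 were lower in EN than in CV, and 6 were lower in EN than in ENR. Mitochondrial hydratases, isomerases and thiolases reached 1435 ± 21.3, 2038 ± 33.9 and 2660 ± 40.98 TPM in ENR, CV and EN. Thioesterases broke this order, with 340.3 ± 2.49 TPM in ENR, 608 ± 8.99 in EN and 1043 ± 20.9 in CV, which rests on 1 gene, since without Acot1 they summed to 230 ± 4.65, 397 ± 6.84 and 383 ± 13.7 TPM and the CV and EN libraries overlapped. Peroxins differed least, with 450.1 ± 5.90, 543 ± 10.7 and 578 ± 13.6 TPM in ENR, CV and EN.

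**Figure D1:**
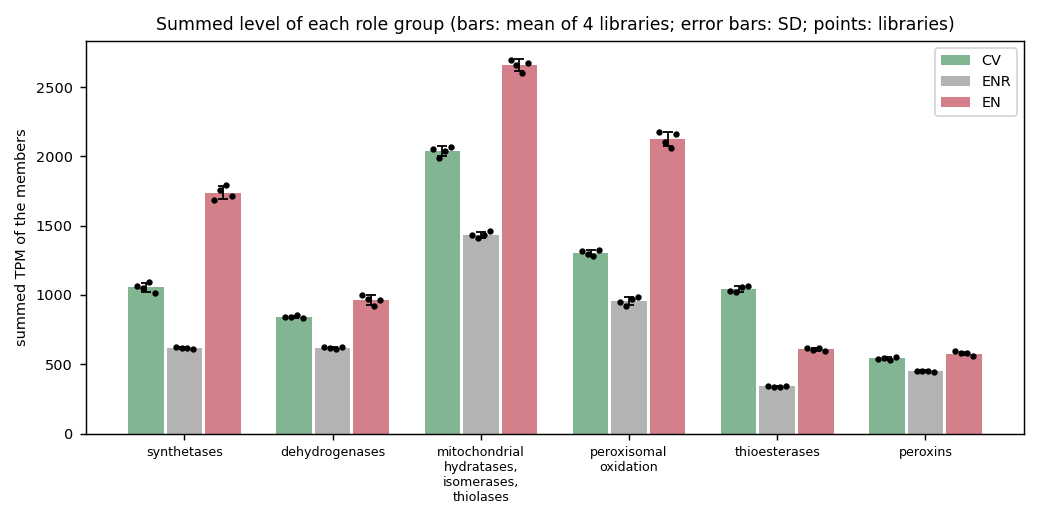
Summed TPM of each group of members in CV, ENR and EN organoids, with the bar at the mean of 4 RNA libraries, the error bar at the SD and each point 1 library. Peroxisomal oxidation and synthetases stand highest in EN, at 2126 and 1738 TPM, whereas thioesterases stand highest in CV at 1043 TPM. Acsl5 alone made up 88.7% of the synthetase TPM in EN.

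Single transcripts were compared with edgeR's quasi-likelihood test at a Benjamini-Hochberg adjusted p under 0.01, in 1 fit of all 12 libraries. Between CV and EN, 51 of the 62 members changed (82.3%, against 76.4% of all 9288 transcripts tested), of which 32 were higher in EN (51.6%, against 35.2%) and 19 lower (30.7%, against 41.2%). The median log2 fold change of the members was 0.39 and that of all transcripts -0.08. Members and all transcripts moved together with the scaling. With limma on log2(TPM + 1) the medians were 0.06 and -0.34, on the deposited mRNA copy numbers 1.10 and 0.62, and with library sizes set to the spike-ins -0.01 and -0.49. The split of higher and lower members was 26 and 24, 43 and 5, and 17 and 20 under these scalings. Higher calls thus made up 52%, 89.6% and 45.95% of the members called, against 31.3%, 77.8% and 25.55% of all transcripts called. Of the 19 members called lower, 10 had a value above 0 on the copy scale, namely Acad8, Acad9, Acadsb, Acot2, Acss2, Hadha, Hadhb, Pex10, Pex26 and Pex7, while of the 32 called higher only Pex13 and Pex5 (TPM) and Pex13, Pex3 and Pex5 (spike-ins) fell below 0.

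Against ENR the balance lay further toward EN. Here 52 members changed (83.9%, against 72.7% of all transcripts), 40 being higher in EN (64.5%, against 35.5%) and 12 lower (19.4%, against 37.2%), with a median of 0.68 against -0.01. Under TPM, copies and spike-ins the splits were 38 and 14, 50 and 1, and 19 and 14, and the median of all transcripts shifted to -0.14, 0.88 and -0.52. Higher calls made up 73.1%, 98.0% and 57.6% of the members called, against 39.8%, 87.45% and 20.4% of all transcripts called. On the copy scale 9 of the 12 lower calls changed sign (Acad8, Acad9, Acadsb, Acot7, Acsl4, Acss1, Acss2, Pex10 and Pex26), and with the spike-ins 7 of the 40 higher calls did (Acad12, Acot9, Hadha, Hadhb, Pex13, Pex14 and Pex3).

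CV also stood above ENR for more members than it stood below. Of 34 that changed (54.8%, against 60% of all transcripts), 26 were higher in CV (41.9%, against 30.2%) and 8 lower (12.9%, against 29.8%), with medians of 0.11 and -0.01. The splits under TPM, copies and spike-ins were 37 and 6, 15 and 0, and 16 and 4, with medians of all transcripts of 0.13, 0.20 and -0.10, and no call changed sign. Higher calls made up 86.05%, 100% and 80% of the members called, against 66.2%, 75.35% and 39.4% of all transcripts called. Both comparisons with ENR share its libraries.

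**Figure D2:**
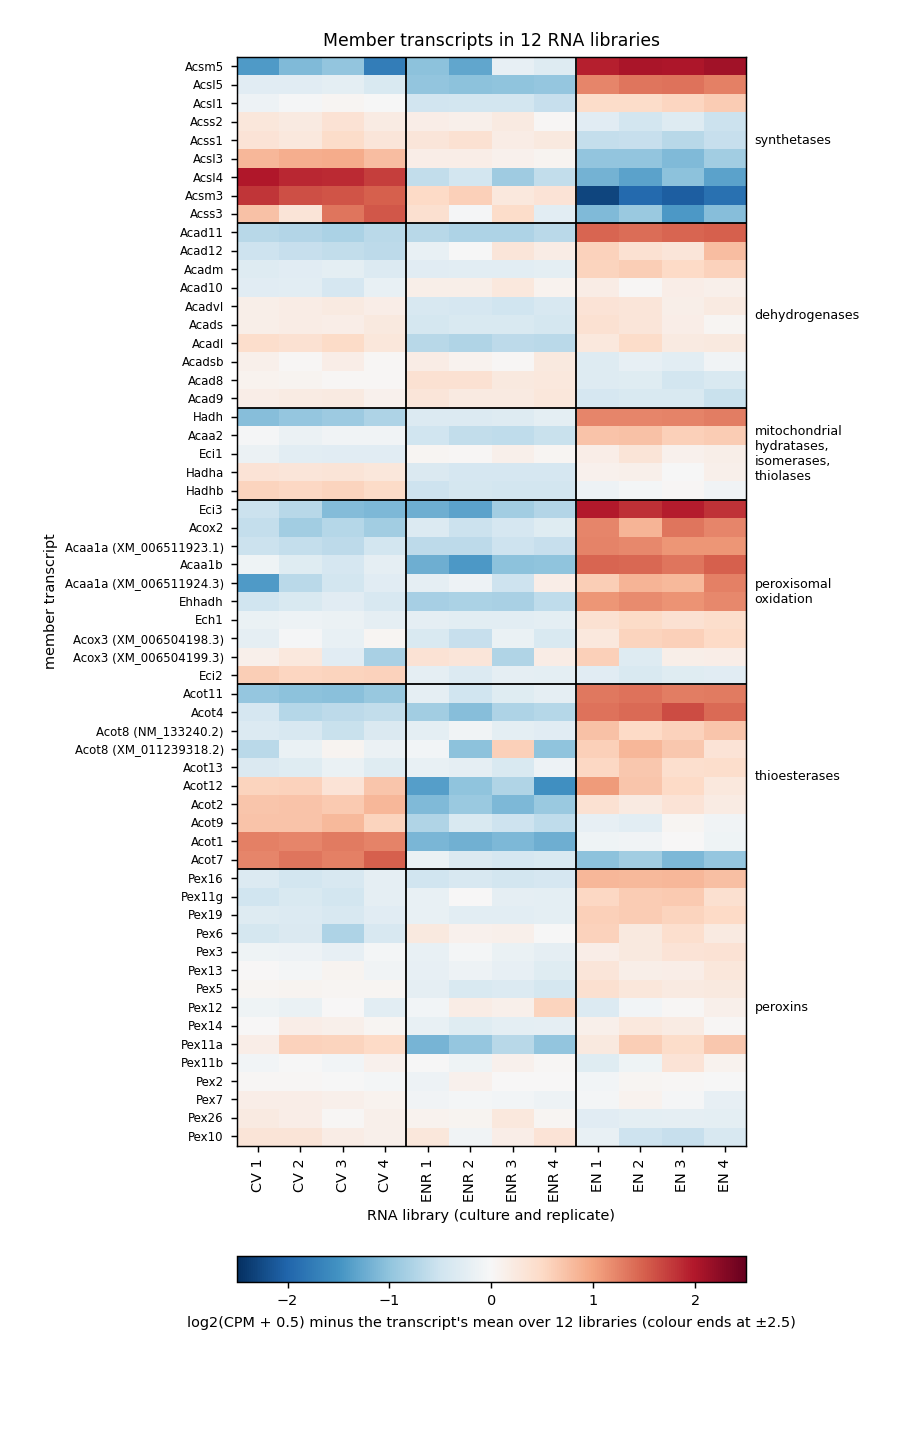
Level of the tested member transcripts drawn in the 12 RNA libraries as log2 CPM minus the row mean, grouped by role, with red above and blue below the row mean. Peroxisomal oxidation rows are red across the 4 EN libraries apart from Eci2 and the XM_006504199.3 transcript of Acox3, and the thioesterase rows Acot1, Acot2, Acot7 and Acot9 are reddest in CV.

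Synthetases, the entry step, split most sharply between their members. In EN 3 of 9 were higher than in CV (Acsm5, Acsl5 and Acsl1) and 6 were lower (Acss3, Acsm3, Acsl4, Acsl3, Acss1 and Acss2), and against ENR the same 3 genes were higher and the same 6 lower. Under TPM the count was also 3 and 6, with the spike-ins 2 and 6, and on the copy scale 3 and 4.

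Acsl5, the main long-chain synthetase of the intestinal epithelium, was the most abundant of them. Its level was 1223, 1215, 1253 and 1135 in CV, 754, 732, 741 and 761 in ENR and 3445, 3758, 3811 and 3574 CPM in EN. The 3 cultures did not overlap, and EN was 3.02-fold above CV (log2 fold change 1.60, SE 0.04, edgeR adjusted p = 9.3e-15) and 4.88-fold above ENR. Acsl5 made up 60.2% ± 0.372 of the TPM of all synthetases in CV, 57.2% ± 1.18 in ENR and 88.7% ± 0.590 in EN (SD, n = 4).

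Acsl1, a further long-chain synthetase, was also higher in EN, 1.47-fold above CV and 2.03-fold above ENR, whereas Acsl4 and Acsl3 went the opposite way, and these 3 were chosen after their values were seen. Acsl4, which prefers arachidonate, read 113, 105, 103 and 93.5 in CV, 17.9, 20.1, 14.9 and 17.996 in ENR and 11.9, 10.7, 13.4 and 10.7 CPM in EN. CV lay far above both other cultures, 5.84-fold above ENR, and EN was 0.113 of CV (log2 fold change -3.15, SE 0.09, edgeR adjusted p = 6.6e-14). Acsl3, found on lipid droplets and the endoplasmic reticulum, averaged 335 ± 16.3 CPM in CV, 201 ± 7.23 in ENR and 92.7 ± 5.95 in EN, without overlap. Together Acsl3 and Acsl4 went from 16.4% ± 0.286 of synthetase TPM in CV and 13.0% ± 0.398 in ENR to 1.97% ± 0.154 in EN.

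Medium-chain synthetases of the mitochondrion diverged in the same manner. Acsm5 had 1.62, 2.14, 2.39 and 1.205 in CV, 2.30, 1.80, 4.404 and 4.03 in ENR and 21.4, 22.9, 22.5 and 23.8 CPM in EN. It rose 12.3-fold from CV to EN, with CV and ENR overlapping at a low level (log2 fold change 3.62, SE 0.23, edgeR adjusted p = 8.6e-10). Acsm3 had 40.2, 35.5, 34.2 and 32.7 in CV, 16.1, 17.2, 13.5 and 14.3 in ENR and 1.88, 2.57, 2.32 and 2.74 CPM in EN, so that its order, CV above ENR above EN, was that of Acsl3 and Acsl4 (log2 fold change of EN over CV -3.91, SE 0.13, edgeR adjusted p = 3.9e-13). Acss3, a short-chain synthetase, was scarce, with 1.75, 1.201, 2.92 and 3.49 in CV, 1.28, 0.818, 1.37 and 0.629 in ENR and 0.134, 0.214, 0 and 0.144 CPM in EN. At most 1 count was seen in an EN library, below the floor of 3 counts, and no fold is given although the transcript was called lower.

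Dehydrogenases catalyse the first oxidation in mitochondria, each for its own chain length. Of 10, 4 rose and 3 fell from CV to EN, and 6 rose and 3 fell from ENR to EN. Under TPM 3 and 6, on the copy scale 7 and 0, and with the spike-ins 2 and 4 were higher and lower from CV to EN. The direction of this group thus depends on the scaling. All transcripts shifted with it too, with 31.3%, 77.8% and 25.55% of their calls higher in EN.

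Acadvl, for very long chains, was the most abundant. It was read at 331, 340.1, 350.3 and 333 in CV, 226, 222, 211 and 225 in ENR and 378, 370.2, 331 and 348 CPM in EN. ENR was the low culture, 1.61-fold under EN and 1.53-fold under CV, whereas CV and EN overlapped (log2 fold change 0.08, SE 0.04, edgeR adjusted p = 0.11). Acadl, for long chains, gave a like pattern, with 104 ± 6.10, 48.7 ± 1.497 and 97.4 ± 7.49 CPM in CV, ENR and EN. Acadm, for medium chains, was level between CV and ENR, at 205 ± 5.50 and 209 ± 2.38 CPM, and rose to 373 ± 13.9 CPM in EN, 1.82-fold above CV. Acadl and Acadm were picked after their values were seen.

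Acad11, which also acts on very long chains and on hydroxylated acids, had the largest rise of the dehydrogenases from CV to EN. The CV libraries gave 137, 132, 127 and 137 CPM, the ENR libraries 136, 129, 129 and 138 CPM and the EN libraries 602, 581, 601 and 625 CPM. CV and ENR overlapped fully, and EN was 4.52-fold above CV (log2 fold change 2.18, SE 0.04, edgeR adjusted p = 2.3e-16). Acad12 was low, with 8.09, 7.74, 7.56 and 7.35 in CV, 10.4, 11.8, 14.7 and 13.5 in ENR and 17.96, 15.6, 14.6 and 20.6 CPM in EN. Its CV libraries lay below all others, and 1 EN library lay among those of ENR, a contrast (1.38-fold, edgeR adjusted p = 0.0045) whose call was lost when ENR replicate 1 or 2 or EN replicate 1 or 4 was left out.

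Of the 3 dehydrogenases that fell from CV to EN, Acadsb fell least (log2 fold change -0.31, SE 0.06, edgeR adjusted p = 0.00029). The other 2, Acad9 and Acad8, have main roles outside fatty acid oxidation. Acad9, needed for assembly of respiratory complex I, had 118, 121, 122 and 112 in CV, 129, 123, 123 and 127 in ENR and 77.7, 80.1, 80.6 and 71.3 CPM in EN. Acad8, the isobutyryl-CoA dehydrogenase of valine breakdown, had 63.3, 62.7, 60.6 and 60.5 in CV, 77.7, 77.2, 70.9 and 71.4 in ENR and 47.7, 48.2, 43.3 and 45.5 CPM in EN. EN was the lowest culture for both without overlap, with log2 fold changes from CV of -0.62 (SE 0.05, edgeR adjusted p = 6.5e-09) and -0.42 (SE 0.05, edgeR adjusted p = 2.3e-06). On the copy scale both were above 0, at 0.15 and 0.35.

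The later mitochondrial steps are carried by Hadh for short and medium chains, by the trifunctional protein of Hadha and Hadhb for long chains, and by the thiolase Acaa2. Of these 5 members 3 rose and 2 fell from CV to EN, and 4 rose and none fell from ENR to EN.

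Hadh had 301, 325, 336 and 373 in CV, 499, 499.7, 507 and 537 in ENR and 1474, 1481, 1502 and 1539 CPM in EN. The 3 cultures were apart, EN 4.49-fold above CV (log2 fold change 2.17, SE 0.05, edgeR adjusted p = 7.1e-15), and CV, unlike for most members called between them, lay under ENR. Acaa2 had 499.8, 459.8, 477 and 481 in CV, 359, 331, 328 and 345 in ENR and 834, 843, 764 and 789 CPM in EN. It too separated the cultures, EN being 1.68-fold above CV (log2 fold change 0.75, SE 0.04, edgeR adjusted p = 1.2e-10) and 2.37-fold above ENR.

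The 2 subunits of the trifunctional protein peaked in CV instead. Hadha was read at 744, 721, 729 and 707 in CV, 456, 436, 438 and 436 in ENR and 632, 637, 578 and 635 CPM in EN. Hadhb was read at 873, 855, 879 and 825 in CV, 416, 435, 435 and 435 in ENR and 540.3, 574, 605 and 557 CPM in EN. In both, CV was highest and ENR lowest without overlap, and the log2 fold changes from CV to EN were -0.22 (SE 0.04, edgeR adjusted p = 3.4e-05) and -0.59 (SE 0.04, edgeR adjusted p = 6.9e-10). On the copy scale these values were 0.63 and 0.24. Hadh and the trifunctional protein thus moved in opposite directions from CV to EN in counts, TPM and spike-in scaling, and by different amounts in the same direction in copies.

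Peroxisomal oxidation was the group with the largest share of rises. Between CV and EN 10 of 12 transcripts rose and 1, Eci2, fell, and from ENR to EN 10 rose and none fell. The group kept this direction under each scaling, with 9 and 1 under TPM, 11 and 0 in copies and 8 and 1 with the spike-ins from CV to EN, and its median log2 fold change was 1.57, 1.23, 2.47 and 1.13.

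The transcripts of the next 3 genes moved by similar amounts from CV to EN and were chosen after their values were seen. Ehhadh, the bifunctional hydratase and dehydrogenase, was 128 ± 7.16, 98.6 ± 6.27 and 374 ± 11.3 CPM in CV, ENR and EN. The peroxisomal thiolases Acaa1a (XM_006511923.1) and Acaa1b were 212 ± 13.0 and 103 ± 9.35 CPM in CV, 207 ± 9.40 and 54.5 ± 7.504 in ENR and 703 ± 31.1 and 331 ± 15.8 in EN. These 3 transcripts rose 2.92-fold, 3.31-fold and 3.23-fold from CV to EN, each without overlap. Acaa1a and Acaa1b are close copies, so that reads can be assigned to the wrong one.

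Acox2, the oxidase of branched chains and bile acid intermediates, had 14.6, 12.01, 13.5 and 12.05 in CV, 17.7, 15.2, 16.6 and 18.1 in ENR and 52.7, 40.9, 57.3 and 53.1 CPM in EN. It was lowest in CV and highest in EN, a 3.93-fold rise (log2 fold change 1.97, SE 0.11, edgeR adjusted p = 8.1e-11). Eci3, an enoyl-CoA isomerase, had 5.79, 5.21, 3.84 and 3.73 in CV, 3.46, 3.11, 4.56 and 5.03 in ENR and 35.5, 31.9, 35.3 and 31.7 CPM in EN. CV and ENR overlapped, and EN was 7.24-fold above CV (log2 fold change 2.86, SE 0.15, edgeR adjusted p = 6.8e-11).

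Its relative Eci2 was the exception of the group. It had 188, 178, 180.4 and 183 in CV, 105, 96.5, 105 and 103 in ENR and 101, 93.8, 99.7 and 101 CPM in EN. CV stood alone and ENR and EN overlapped, with a log2 fold change of -0.88 from CV to EN (SE 0.04, edgeR adjusted p = 9.8e-12) and of -0.05 from ENR to EN (SE 0.04, edgeR adjusted p = 0.27). In copies the change from CV was -0.11 and was not called. Ech1, the dienoyl-CoA isomerase and the most abundant transcript of the group, had 320.2, 327, 324 and 306 in CV, 308, 297, 300.5 and 305 in ENR and 468, 499.5, 471 and 486 CPM in EN. EN was above both others, 1.51-fold above CV (log2 fold change 0.59, SE 0.03, edgeR adjusted p = 1.8e-10). With the spike-ins the change was 0.17 and was not called.

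**Figure D3:**
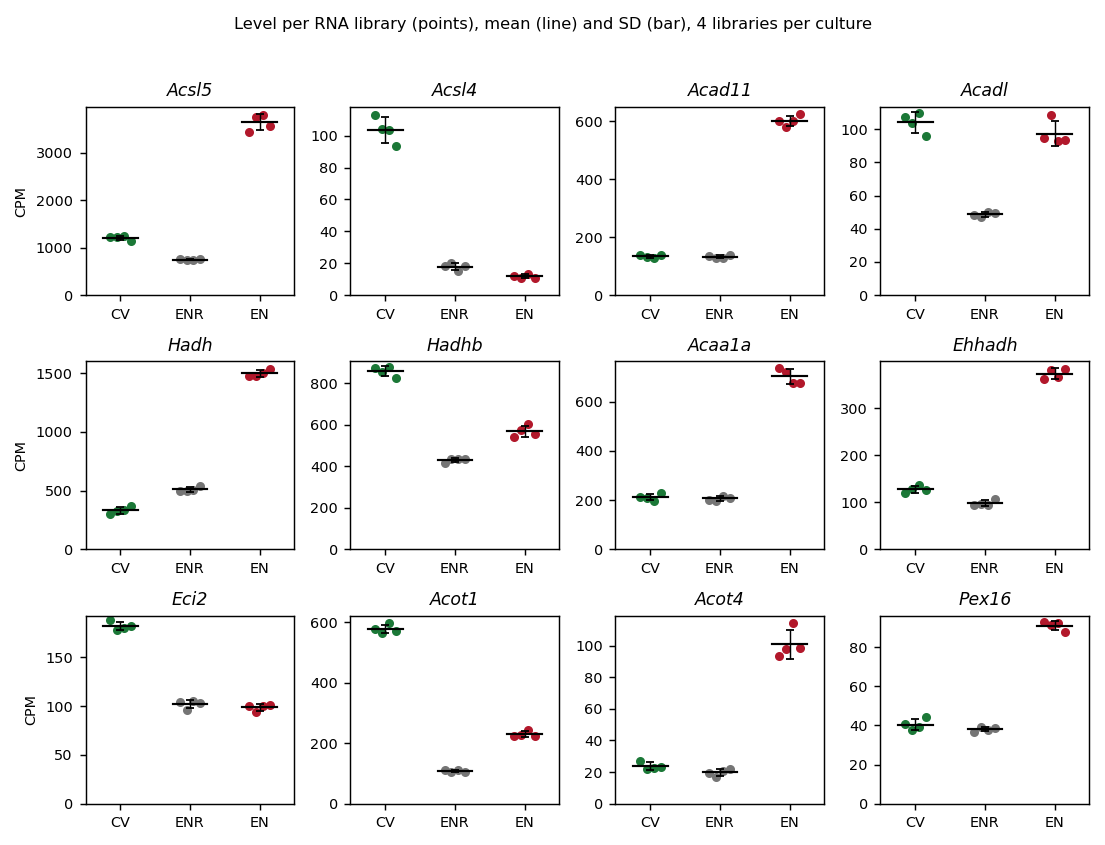
CPM of selected members in the 4 CV, 4 ENR and 4 EN RNA libraries, each point 1 library, the line the mean and the bar the SD, with 1 linear axis per gene starting at 0. Acsl5, Acad11, Hadh, Acaa1a and Ehhadh are highest in EN, while Acsl4, Eci2 and Acot1 are highest in CV.

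Thioesterases were the group whose summed level, with Acot1 included, was highest in CV. Of 10 tested transcripts 4 rose and 4 fell from CV to EN, and from ENR to EN 8 rose and 1, Acot7, fell. In copies the first split was 6 and 1.

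Acot1, a cytosolic thioesterase of long-chain acyl-CoA, was the most abundant. The CV libraries gave 578, 564, 597 and 570.3 CPM, the ENR libraries 110.0, 105, 111 and 103 CPM and the EN libraries 224, 229, 243 and 225 CPM. CV was 5.38-fold above ENR and EN 2.15-fold above ENR, and EN was 0.399 of CV (log2 fold change -1.33, SE 0.04, edgeR adjusted p = 3.1e-14). Acot1 held 63.3% ± 0.920 of the thioesterase TPM in CV, 32.3% ± 1.13 in ENR and 34.6% ± 0.868 in EN. In copies the change from CV to EN was -0.57 and was not called.

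Acot7, known from neurons, had 58.8, 64.3, 60.7 and 71.6 in CV, 22.3, 19.5, 18.5 and 19.1 in ENR and 12.1, 13.5, 11.2 and 12.7 CPM in EN. CV exceeded ENR 3.21-fold and EN was the lowest, with a log2 fold change of -2.37 from CV (SE 0.09, edgeR adjusted p = 8.9e-13). Acot4, the peroxisomal member of the Acot1 cluster, went the other way, with 27.1, 21.9, 22.8 and 23.5 in CV, 19.7, 17.02, 21.0 and 21.9 in ENR and 93.1, 97.9, 114 and 98.2 CPM in EN. CV and ENR met, and EN was 4.23-fold above CV (log2 fold change 2.08, SE 0.09, edgeR adjusted p = 3.1e-12). The genes Acot1, Acot2 and Acot4 are neighbours of related sequence, and Acot9 and Acot10 are alike in sequence too, which leaves the split of their reads uncertain.

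Acot11, a thioesterase of long chains, had 26.7, 25.6, 25.2 and 26.99 in CV, 45.3, 37.0, 42.7 and 44.9 in ENR and 132, 137, 129 and 129.8 CPM in EN. Its cultures did not overlap, and the 5.05-fold rise from CV to EN (log2 fold change 2.33, SE 0.06, edgeR adjusted p = 1.3e-14) was the largest of the group.

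Peroxins, which build the organelle, had a median log2 fold change of 0.16 from CV to EN, beside 1.57 for the peroxisomal oxidation enzymes. Among 16, 8 rose and 3 fell from CV to EN, with log2 fold changes of the tested peroxins between -0.67 and 1.17, and from ENR to EN 9 rose and 2 fell. The count from CV to EN was 5 and 5 under TPM, 13 and 0 in copies and 1 and 3 with the spike-ins, so no common direction holds across scalings. Over all transcripts called, the share higher in EN moved as well, at 31.3%, 77.8% and 25.55%.

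Among the peroxins described in full, the rises were of factors that insert membrane proteins and of a division factor. The export ATPase Pex6, chosen after its values were seen, rose almost as much from CV to EN. Its log2 fold change was 0.88 (SE 0.10, edgeR adjusted p = 6.8e-07), and from ENR to EN it was not called. Pex16 had 40.7, 37.5, 39.1 and 44.3 in CV, 36.7, 39.1, 37.8 and 38.8 in ENR and 92.6, 91.2, 92.2 and 87.7 CPM in EN. CV and ENR overlapped, and EN was 2.25-fold above CV (log2 fold change 1.17, SE 0.05, edgeR adjusted p = 1.4e-11), the change called under each scaling. Pex19, the chaperone of peroxisomal membrane proteins, had 101, 98.2, 94.9 and 103 in CV, 111, 104, 105 and 105 in ENR and 191, 195, 184 and 178 CPM in EN. Pex11g, of the division family Pex11, had 12.3, 13.3, 12.6 and 14.9 in CV, 15.2, 17.7, 14.9 and 14.6 in ENR and 25.1, 27.4, 27.8 and 23.2 CPM in EN. In both, EN lay above all other libraries, 1.89-fold (edgeR adjusted p = 1e-11) and 1.94-fold (edgeR adjusted p = 2.2e-07) above CV, although with the spike-ins neither rise was called. Pex11a, of the same family and chosen after its values were seen, was 10.2 ± 1.32 CPM in CV and 10.51 ± 1.38 in EN against 3.51 ± 0.544 in ENR.

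Of the peroxins that fell, Pex10 belongs to the ubiquitin ligase that recycles the import receptor Pex5, and Pex26 anchors the export ATPase Pex6. Pex10 had 12.4, 12.4, 11.1 and 10.7 in CV, 12.03, 9.16, 11.1 and 12.6 in ENR and 8.58, 6.64, 6.42 and 7.34 CPM in EN. Pex26 had 33.7, 32.6, 29.4 and 31.7 in CV, 30.5, 30.3, 34.5 and 29.7 in ENR and 23.6, 24.2, 24.4 and 24.2 CPM in EN. EN was lowest for both, with log2 fold changes from CV of -0.67 (SE 0.13, edgeR adjusted p = 0.00027) and -0.40 (SE 0.07, edgeR adjusted p = 6.3e-05) that were 0.03 and 0.32 in copies. The import receptor Pex7 (-0.19) was the third, and its call was lost when any of CV replicate 1 or 2 or EN replicate 1 or 4 was left out.

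**Figure D4:**
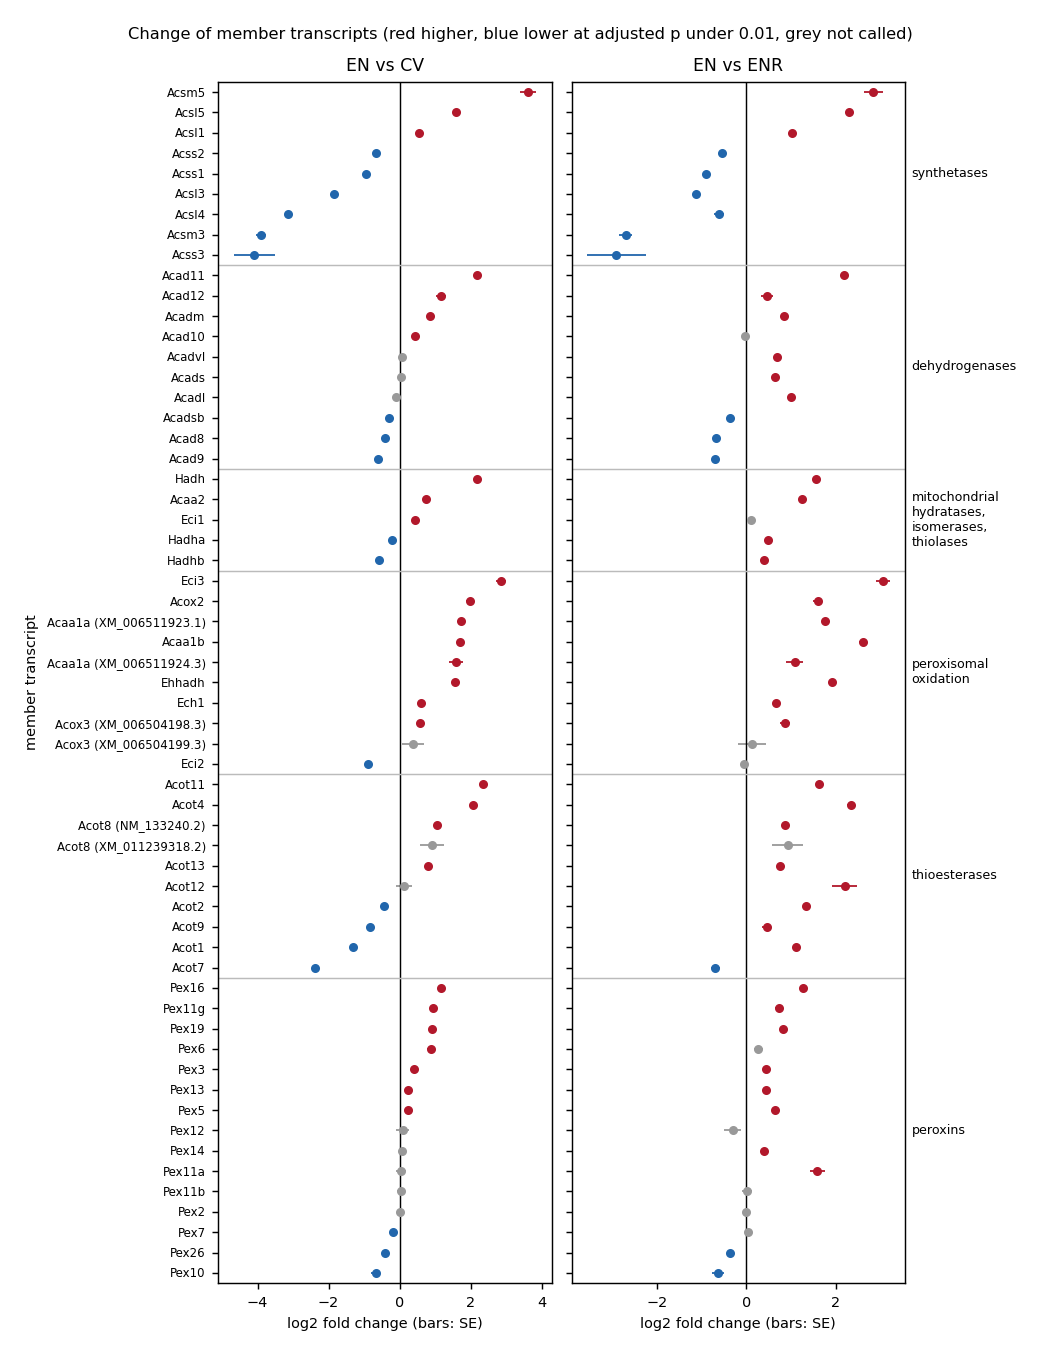
Log2 fold change of the tested member transcripts drawn from CV to EN (left) and from ENR to EN (right), on edgeR's fit with bars at the standard error, in red where called higher in EN, blue where lower and grey where not called. Synthetases spread from -3.91 for Acsm3 to 3.62 for Acsm5 from CV to EN, with Acss3, under the floor in EN, drawn at its fitted value, while peroxins stay between -0.67 and 1.17.

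Other genes of the pathway were read from the same fit. Of 24 further beta-oxidation genes, 13 were higher (54.2%, against 35.2% of all transcripts) and 8 lower (33.3%, against 41.2%) in EN than in CV, and 19 were higher (79.2%, against 35.5%) and 5 lower (20.8%, against 37.2%) in EN than in ENR. Scp2, a peroxisomal thiolase and sterol carrier, went from 389 CPM in CV to 2369 CPM in EN (log2 fold change 2.61, SE 0.04) and Hsd17b4, the D-bifunctional enzyme, from 253 to 881 CPM (log2 fold change 1.80, SE 0.03). Cpt1a, the gate of long chains into mitochondria, was lower by a log2 fold change of -0.54 (SE 0.05) from CV to EN, while Cpt2 was higher by 0.67 (SE 0.05). Acat1, which acts on acetoacetyl-CoA, was lower by -1.41 (SE 0.05).

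Of 38 transcripts of other peroxisomal proteins, 16 were higher (42.1%, against 35.2% of all transcripts) and 12 lower (31.6%, against 41.2%) in EN than in CV, and 21 were higher (55.3%, against 35.5%) and 8 lower (21.1%, against 37.2%) in EN than in ENR. The rises included catalase, Cat, from 171 to 1308 CPM (log2 fold change 2.93, SE 0.04) and the soluble epoxide hydrolase Ephx2 (2.86, SE 0.05). The falls included Agps (-2.30, SE 0.05), Gnpat (-0.74, SE 0.07) and Far1 (-3.19, SE 0.11), which together make ether lipids in and at the peroxisome. These genes were picked from the list after their values were seen.

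Of 12 transcripts of lipid-sensing nuclear receptors and their partners, 8 were higher (66.7%, against 35.2% of all transcripts) and 1 was lower (8.33%, against 41.2%) in EN than in CV. Ppara was at 50.9, 76.0 and 194.9 CPM in CV, ENR and EN, Rxra at 46.5, 107.6 and 235.0 CPM and Hnf4g at 122.4, 369.3 and 1406 CPM, each called higher in EN than in both other cultures. Hnf4a was 726, 708 and 703 CPM in CV, ENR and EN and was not called in either comparison with EN. Of 15 transcripts of genes known as Ppar targets outside the members, 6 were higher and 7 lower in EN than in CV (40% and 46.7%, against 35.2% and 41.2% of all transcripts), 12 were higher and 3 lower in EN than in ENR (80% and 20%, against 35.5% and 37.2%), and 9 were higher and 6 lower in CV than in ENR (60% and 40%, against 30.2% and 29.8%). Cd36, a fatty acid receptor, rose from CV to EN by 5.52 on the log2 scale (SE 0.10), whereas Pdk4, a kinase that restrains pyruvate oxidation, fell by 3.89 (SE 0.15). Pdk4, Cyp4a10 and Angptl4 were at 42.8, 82.5 and 56.1 in CV, 1.49, 6.79 and 8.44 in ENR and 2.86, 36.6 and 26.7 CPM in EN, each highest in CV. Cd36 and Vnn1 were instead lower in CV than in ENR, by log2 fold changes of -2.61 (SE 0.11) and -1.07 (SE 0.29).

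The chromatin of member promoters was read in the union of peaks, whose coordinates are on mm9 as deposited. A promoter region was one that overlapped 500 bp either side of a coding start site in GENCODE, which gave 71 regions for 58 of the 59 genes. Scores were compared with limma on log2(score + 1) at an adjusted p under 0.05, and libraries summed to 1345873 to 1760511 score units in H3K27ac and to 1752385 to 2109261 in ATAC. H3K27ac, a mark of active promoters and enhancers, was higher in EN than in CV at 20 member promoter regions (28.2%, against 16.9% of all promoter regions) and lower at 1 (1.41%, against 3.73%). Against ENR 12 were higher in EN (16.9%, against 2.53%) and 0 lower (against 1.39%), where 24 regions had an unadjusted p under 0.05. Between CV and ENR 0 were higher in CV (against 0.85%) and 6 lower (8.45%, against 6.68%), with 25 at an unadjusted p under 0.05. Without the trend of the spread on the mean, 3, 0 and 0 regions were called, so these counts rest on that choice, and without EN replicate 4 they were 12, 4 and 3. CV medium holds an inhibitor of histone deacetylases, whose part in the H3K27ac scores cannot be told apart from that of the culture.

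Genes whose promoter H3K27ac rose from CV to EN included Acaa1a, Acaa1b and Ehhadh of the peroxisomal pathway, Acaa2, Acadl, Eci1, Hadh, Hadha and Hadhb of mitochondria, and Acad11 of both. Others were Acsl5, the thioesterases Acot2, Acot4, Acot8 and Acot11, and the peroxins Pex5, Pex13, Pex16 and Pex19. The promoter region of Acot4 (chr12:85378980-85380328) had scores of 45, 36 and 37 in CV, 59, 59 and 61 in ENR and 210, 145 and 217 in EN. That of Hadh (chr3:130974081-130975632) had 34, 84 and 54 in CV, 150, 110 and 110 in ENR and 291, 204 and 240 in EN. Neither region had overlapping cultures, and the log2 fold changes from CV to EN were 2.23 (SE 0.28, limma adjusted p = 1.8e-06) and 2.15 (SE 0.26, limma adjusted p = 1.4e-06).

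Pex19 (chr1:174056543-174058146) had 45, 134 and 60 in CV, 138, 108 and 126 in ENR and 316, 266 and 306 in EN. EN was apart from both other cultures, which overlapped at this promoter, with a log2 fold change from CV of 2.03 (SE 0.26, limma adjusted p = 3.2e-06). At Eci3 (chr13:35055506-35056809), with 48, 26 and 26 in CV, 17, 9 and 12 in ENR and 56, 63 and 72 in EN, the change was called against ENR (2.28, SE 0.42, limma adjusted p = 0.0022) and not against CV (0.97, SE 0.42, limma adjusted p = 0.17).

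At the promoter shared by Hadha and Hadhb, which are transcribed away from each other, H3K27ac ran against the RNA counts in the comparisons with CV. The region (chr5:30480745-30482714) scored 118, 109 and 202 in CV, 341, 240 and 258 in ENR and 556, 411 and 488 in EN. H3K27ac was thus lowest in CV, where both transcripts were highest, and EN exceeded CV by 1.80 on the log2 scale (SE 0.19, limma adjusted p = 7.9e-08). From ENR to EN the mark (0.80, SE 0.19, limma adjusted p = 0.018) and both transcripts (0.49 and 0.40) rose, and on the copy scale the transcripts, like the mark, were above 0 from CV to EN. The lone fall was at Acad9 (chr3:35964616-35966072), with 65, 94 and 109 in CV, 68, 56 and 59 in ENR and 44, 47 and 37 in EN (-1.02, SE 0.31, limma adjusted p = 0.037), and its transcript fell too.

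Over the 58 genes, the log2 fold change of the transcript and of H3K27ac at its main promoter region correlated with r = 0.65 (rho = 0.57) from CV to EN, 0.82 (rho = 0.78) from ENR to EN and 0.21 (rho = 0.11) between CV and ENR. These values are across genes and describe the members only, the points share libraries, and genes are not independent replicates. For H3K4me3 the r values were 0.71, 0.57 and 0.26 and for ATAC 0.38, 0.31 and 0.15, so from CV to EN the value of H3K4me3 was above that of H3K27ac.

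**Figure D5:**
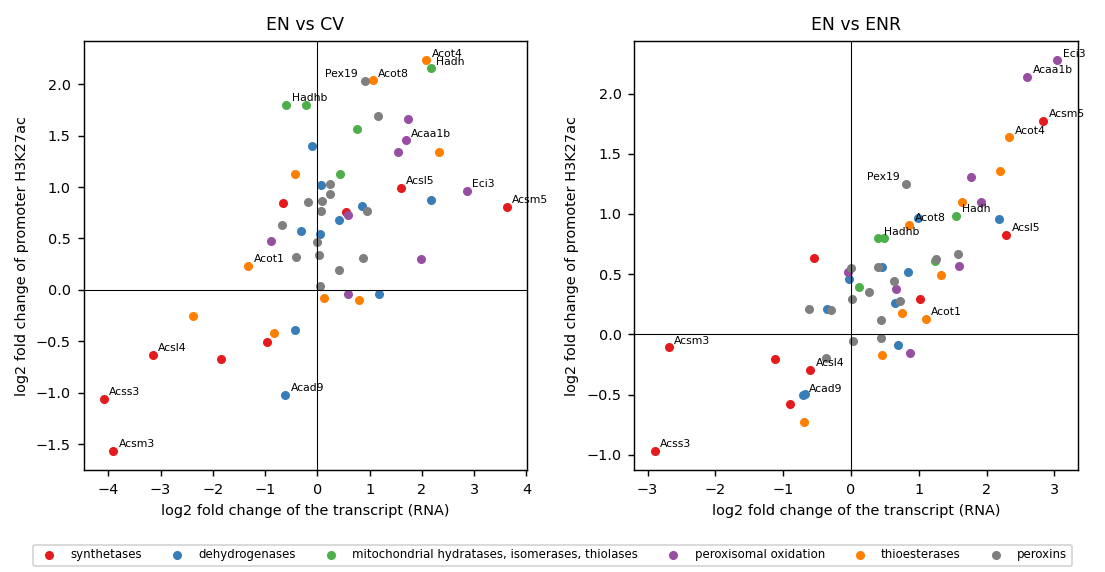
Log2 fold change of promoter H3K27ac against that of the transcript for the member genes drawn, from CV to EN (left) and from ENR to EN (right), each point 1 gene coloured by role. Most genes lie along a rising diagonal, and on the left Hadha and Hadhb stand off it with H3K27ac at 1.80 and a transcript that fell.

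ATAC-seq, which measures accessible chromatin, changed at a share of member promoters closer to that of all promoters. In EN 18 regions were higher than in CV (25.4%, against 19.1%) and 8 lower (11.3%, against 15.5%). Against ENR 13 were higher in EN (18.3%, against 9.82%) and 4 lower (5.63%, against 9.66%), and 4 were higher (5.63%, against 5.89%) and 7 lower (9.86%, against 8.93%) in CV than in ENR. At Pex19 accessibility was 32, 43, 32 and 42 in CV, 50, 51, 46 and 47 in ENR and 71, 85, 96 and 94 in EN, the log2 fold change from CV being 1.198 (SE 0.14, limma adjusted p = 3.7e-06). At Acsl5, Hadha and Acad11, where H3K27ac rose, the ATAC values of CV and EN overlapped.

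H3K4me3, a mark of promoters, was higher in EN than in CV at 3 member regions (4.23%, against 4.44%), those of Acaa1b, Acad10 and Acss2. It was higher in EN than in ENR at 8 (11.3%, against 3.37%), among them Acaa1b with 28, 22 and 25 in ENR and 54, 64 and 74 in EN (log2 fold change 1.32, SE 0.16, limma adjusted p = 0.0037). No region was lower in EN in either comparison by limma (against 5.61% and 2.42%), the unadjusted p being under 0.05 in either direction at 23 and 28, and none was called between CV and ENR (against 0.899% higher and 0.0453% lower), with 10 at an unadjusted p under 0.05. Without EN replicate 1, 9 and 21 regions were called. H3K27me3, the mark of Polycomb repression, changed at 1 region of Acot12, which was lower in EN than in CV (1.41%, against 0.0639%), and 0 regions were higher (against 0.281%). Its scores were 274, 195 and 242 in CV, 189, 60 and 96 in ENR and 65, 95 and 43 in EN (-1.85, SE 0.45, limma adjusted p = 0.019), while the Acot12 transcript, with a log2 fold change of 0.12 (SE 0.23), was not called. That call was lost without any 1 of CV replicates 1, 2 and 3 and EN replicates 1 and 4, and in EN against ENR (background 0% higher and 0.0575% lower) and CV against ENR (0.0192% and 1.62%) no member region was called by limma, with 5 and 2 at an unadjusted p under 0.05.

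Hnf4g, a nuclear receptor related to Hnf4a, was read in 1 library per culture with 84340, 352600 and 1816497 reads within regions in CV, ENR and EN, so no comparison between cultures was tested, and intervals are 95% exact and cover counting error only. A region was called rich at 16 or more reads in EN, 4 times the median region. Of the 71 member promoter regions 57 were rich (80.3%, against 68.6% of all promoter regions and 24.7% of all regions). Per kb of region, 14 of 71 were rich (19.7%, against 19.4% of all promoter regions), so that the difference was not seen once region length was taken into account. Member promoters held 0.154% of the reads in CV (0.129 to 0.183), 0.168% in ENR (0.155 to 0.182) and 0.284% in EN (0.276 to 0.292), and all coding promoters 35.1%, 37.4% and 54.2%.

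The highest count in EN was at Acadm, with 12, 31 and 298 reads in CV, ENR and EN, followed by Acadl with 4, 20 and 291 and Pex16 with 6, 29 and 288. As RPM, reads scaled to the library's total, these were 142 (73.5 to 249), 87.9 (59.7 to 125) and 164 (146 to 184) at Acadm and 71.1 (26.1 to 155), 82.2 (55.1 to 118) and 159 (141 to 178) at Pex16. At Acadm and Pex16 the intervals of CV and EN overlap and those of ENR and EN do not. At Acadl, whose scaled values are not printed, the EN interval lies above that of CV, so the overlap is not general. This compares single libraries and not the cultures. The genes were picked for their high counts in EN, a choice that itself favours EN in these comparisons. The next counts are reads in EN, not scaled to region length, at the promoter region with the highest ATAC score of each gene. Members whose transcript fell from CV to EN had 0 to 131 reads (median 44.5 over 18 regions). Members whose transcript rose had 1 to 298 (median 87.0 over 30 regions), and members not called 8 to 291 (median 62.0 over 11 regions). Among those that fell, Acsm3 had 0 reads and Acsl4 24, while Acsl3 had 70, Acot7 96, Eci2 113 and the shared promoter of Hadha and Hadhb 131.

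Motifs of the direct-repeat type that Hnf4 and Ppar factors are known to bind were searched on both strands in the middle 300 bases of each region as CAAAGGTCA, CAAAGTCCA and CAAAGTTCA. The first was in 1 of 71 member promoter regions (1.41%), that of Pex16, against 0.46% of all promoter regions and 2.11% of all regions. The other motifs were in 0 of 71, against 0.626% and 0.351% of all promoter regions. Of 237 other regions nearest to a member the 3 motifs were in 4, 5 and 5 (1.69%, 2.11% and 2.11%), against 2.44%, 2.61% and 1.81% of all regions away from promoters. A match is a description of the letters and does not show binding.

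Shown here are sequences from mm9 of the plus strand at regions rich in Hnf4g reads that hold a match, in capitals, and of the upstream region of Acsl5, which holds none. That Acsl5 region was chosen for its ATAC rise from CV to EN. Coordinates are those of the printed stretch. The Pex16 match (chr2:92215834-92215858) lies 379 bases after the start site, in an intron of the coding transcript that is annotated as exon of a non-coding one. The Hadh match (chr3:130967132-130967225) lies in an intron, 7832 bases after the start site. Both Ehhadh matches lie upstream, at -38025 (chr16:21825887-21826006) and -873 bases (chr16:21788735-21788854) from the start site. The Acsl5 stretch (chr19:55322562-55322681) overlaps no coding gene.
Pex16: tgccacacTGACCTTTGacccattt
Hadh: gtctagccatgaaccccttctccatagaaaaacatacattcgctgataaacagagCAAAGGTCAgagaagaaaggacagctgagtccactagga
Ehhadh, far: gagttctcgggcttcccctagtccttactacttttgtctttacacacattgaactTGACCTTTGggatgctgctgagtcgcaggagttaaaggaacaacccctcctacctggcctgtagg
Ehhadh, near: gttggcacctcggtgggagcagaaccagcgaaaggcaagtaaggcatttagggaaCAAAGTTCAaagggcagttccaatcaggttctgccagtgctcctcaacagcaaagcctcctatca
Acsl5: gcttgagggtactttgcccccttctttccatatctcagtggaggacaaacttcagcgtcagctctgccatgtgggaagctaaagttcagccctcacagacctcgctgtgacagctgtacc

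At the region of the Hadh match (chr3:130966829-130967322), ATAC was 10, 13, 7 and 19 in CV, 8, 13, 12 and 17 in ENR and 25, 27, 31 and 41 in EN. CV and ENR overlapped and EN was above them (log2 fold change from CV 1.33, SE 0.27, limma adjusted p = 0.00087). Hnf4g reads there were 0, 3 and 39 in CV, ENR and EN, and the CV library's 0 allows up to 3 reads. At the far Ehhadh region ATAC was 13, 22, 26 and 16 in CV, 28, 39, 34 and 25 in ENR and 23, 40, 39 and 42 in EN, higher in EN than in CV by 0.88 (SE 0.23, limma adjusted p = 0.0059), with 2, 8 and 32 Hnf4g reads. At the near one ATAC did not pass the test (0.48, SE 0.24, limma adjusted p = 0.14). These Hnf4g reads are not scaled to the library totals, which were 84340, 352600 and 1816497 in CV, ENR and EN. A larger count in EN is therefore not by itself a larger share of the library.

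The region upstream of Acsl5 (chr19:55322449-55322794) was chosen for its ATAC change. Of the regions away from promoters nearest to this gene, it had the largest ATAC log2 fold change from CV to EN. Its ATAC values in that comparison therefore follow in part from the choice. ATAC was 6, 7, 2 and 9 in CV, 8, 13, 9 and 12 in ENR and 48, 48, 34 and 39 in EN. Every EN library lay above all others, and the log2 fold change was 2.74 from CV (SE 0.30, limma adjusted p = 1.6e-06) and 1.92 from ENR (SE 0.30, limma adjusted p = 0.00015). Hnf4g reads, here and at the adjoining region not scaled to the library totals, were 0, 1 and 97 in CV, ENR and EN. The adjoining region (chr19:55322099-55322405) had H3K27ac of 1, 7 and 8 in CV, 3, 5 and 5 in ENR and 29, 30 and 46 in EN (2.75, SE 0.60, limma adjusted p = 0.003) and 2, 12 and 84 Hnf4g reads. At the Acsl5 promoter itself (chr19:55328095-55329175) ATAC overlapped between CV and EN and H3K27ac rose by 0.99 (SE 0.30, limma adjusted p = 0.038).

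Over all 237 regions away from promoters whose nearest coding gene was a member, H3K27ac was higher in EN than in CV at 20 (against 2.72% of such regions in all) and lower at 1 (against 1.61%), and higher in EN than in ENR at 8 (against 0.956%) and lower at 0 (against 0.148%). The 20 lay near 12 genes, with 3 each near Acsl1 and Acsl5 and 2 each near Acaa2, Acot1, Hadha and Hadhb. ATAC was higher at 53 and lower at 39 of 236 from CV to EN (against 19.7% and 15.6%), and higher at 32 and lower at 30 from ENR to EN (against 11.9% and 13%). Between CV and ENR, ATAC was higher in CV at 15 and lower at 25 (against 4.95% and 11%), and H3K27ac higher at 2 and lower at 0 (against 0.48% and 0.214%). H3K4me3 was higher in EN at 6 and lower at 0 of 200 against CV (2.33% and 1.29% of all such regions), higher at 15 and lower at 1 against ENR (6% and 0.274%), and higher in CV than in ENR at 1 and lower at 0 (1.15% and 0.0224%). These calls come from the same limma fit with trend on which the promoter counts of H3K27ac rested, and they were not counted without it. The nearest gene is a matter of position, and whether a region acts on it was not tested.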

How the data were processed

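RNA, chromatin accessibility, histone marks and Hnf4g binding were measured in the organoid cultures described above. Per transcript, the authors deposited RNA values as estimated counts from kallisto (0.43.1 in the methods, 0.43.0 in the submitters' processing notes) on a RefSeq index limited to transcripts whose proteins were quantified, beside TPM and a signal scaled to spike-ins as mRNA copies. In the union of MACS peaks the authors deposited scores for ATAC and the histone marks, normalized between libraries by a method not given in the sources used here and rounded, and unnormalized read counts for Hnf4g, after alignment to mm9 with BWA and removal of duplicates. Here counts were rounded and tested with edgeR 4.0.16 (TMM, quasi-likelihood; transcripts counted in 4 or more of the 12 libraries), and scores with limma 3.58.1 with trend on log2(score + 1) for regions above 0 in at least 3 libraries, both over the whole tables with Benjamini-Hochberg adjustment. DESeq2 1.42.0 was an alternative. On simulated data for EN against CV, edgeR recovered 94.5% of 200 transcripts set to differ 2-fold among 9241, with 3 false calls. In the real data 76.4% of all transcripts were called between these cultures. The simulation, with few changes and 1 common spread, does not measure false calls in that setting. Replicates of a culture differed beyond sampling noise. Named in full are, in each role group, the 2 largest rises and 2 largest falls called from CV to EN and the transcript with the highest mean TPM; other genes were chosen after their values were seen. The rule for the members and the lists were chosen with earlier results of these data known. Symbols were matched to the GENCODE annotation of mm9 (Pex11g and Pex2 under older names). Further histone libraries, an Hnf4g knockout and its wild type, proteins and metabolites were not analysed here. PCR copies are not separate molecules, so intervals reflect counting error alone. A few genes are counted in the groups and lists but are not reported here by name or drawn.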

Additional observations from a re-analysis of the deposited data

Results flagged for a closer look

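In 6 of 78 groups of 4 RNA libraries of a fully described member, 1 library stood apart from the other 3 by more than Dixon's 95% criterion allows; chance gives about 1 in 20 such groups. Hadha was 456 CPM in ENR replicate 1 against 436 to 438 CPM in the others, and 578 CPM in EN replicate 3 against 632 to 637 CPM. Hadhb was 416 CPM in ENR replicate 1 against 435 CPM in the others, so the 2 subunits deviated in opposite directions in that library. Pex19 was 111 CPM in ENR replicate 1 against 104 to 105 CPM, Pex26 was 34.5 CPM in ENR replicate 3 against 29.7 to 30.5 CPM, and Eci2 was 93.8 CPM in EN replicate 2 against 99.7 to 101 CPM. Leaving out any 1 of these libraries changed the sign of none of the members' calls.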

How the results depend on the processing

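Leaving out each RNA library in turn gave 50 to 52, 51 to 53 and 32 to 35 changed members (EN vs CV, EN vs ENR, CV vs ENR, reported as 51, 52 and 34); besides Acad12 and Pex7, the calls of Acox2 and Pex13 between CV and ENR were lost in some. With library sizes set to the spike-ins 33 (EN vs ENR) and 20 (CV vs ENR) members changed, and on mRNA copies 15 (CV vs ENR). Over all 9288 transcripts tested these counts were 5369, 2636 and 1870. Of the fully described members, Acad8 (0.348), Acad9 (0.154), Hadha (0.630), Hadhb (0.242), Pex10 (0.031) and Pex26 (0.317) turned positive from CV to EN on copies, and Acadvl turned to -0.244 and -0.245 under TPM with a pseudocount of 1 and 0.1 and to -0.339 with the spike-ins; the cause was not tested.

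Promoter calls depended more on the processing. In the order EN vs CV, EN vs ENR, CV vs ENR, the reported numbers are 26, 17 and 11 (ATAC), 21, 12 and 6 (H3K27ac), 3, 8 and 0 (H3K4me3) and 1, 0 and 0 (H3K27me3). The fit without trend called 15, 10 and 7 (ATAC), 3, 0 and 0 (H3K27ac), 0 and 4 (the comparisons with EN, H3K4me3) and 0 (EN vs CV, H3K27me3). The study's stricter thresholds called 2, 1 and 0 (ATAC), 11, 5 and 1 (H3K27ac), 0 and 0 (H3K4me3) and 0 (H3K27me3). Quantile normalization called 6 and 0 (H3K27ac, comparisons with ENR), 1 and 4 (H3K4me3) and 0 (H3K27me3). At 4 times the median reads per kb, an alternative added after seeing the data, 14 promoter regions were rich in Hnf4g reads.

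Same-numbered RNA libraries did not deviate together (mean r of 0.0132, from -0.0801 to 0.111) and ATAC pairs, although all above 0, were not all over 0.1 (mean r of 0.17, from 0.0695 to 0.46, against -0.0557 for unlike numbers), so the replicate numbers are not taken as a pairing. With the replicate number as a block, 51, 52 and 36 members and 28, 22 and 12 ATAC promoter regions changed, while H3K27ac gave 0, 0 and 0, H3K4me3 0, 4 and 0 and H3K27me3 0 regions in each comparison; the histone libraries share few numbers.

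Leaving out 1 chromatin library gave 22 to 25, 14 to 18 and 6 to 14 regions (ATAC), 12 to 19, 4 to 14 and 1 to 5 (H3K27ac), 0 to 9, 2 to 21 and 0 to 1 (H3K4me3) and 0 to 1, 0 to 0 and 0 to 1 (H3K27me3). Between CV and ENR, ATAC gave 6 or 7 without CV replicate 1, 3 or 4 or ENR replicate 1 or 3. H3K27ac from ENR to EN gave 4 to 7 without ENR replicate 2 or 4 or any 1 EN library, and between CV and ENR 1 without ENR replicate 1 and 3 without CV replicate 3, ENR replicate 4 or any 1 EN library. H3K4me3 gave 0 or 1 from CV to EN without CV replicate 2 or 3, ENR replicate 4 or EN replicate 2 or 4, and 2 to 5 from ENR to EN without ENR replicate 1 or 4 or EN replicate 2 or 4. Between CV and ENR, 1 H3K4me3 region was called without ENR replicate 1 or EN replicate 1 and 1 H3K27me3 region without ENR replicate 2.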

Other observations

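A region on chromosome 3 whose nearest coding gene is Pex2, 284101 bases away, held 556, 1409 and 3435 Hnf4g reads in CV, ENR and EN, more than any member promoter in each of the 3 libraries. Scaled to each library's reads within regions this was 6592, 3996 and 1891 RPM, lowest in EN. No explanation was tested.

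Enzymes of leucine (Ivd) and propionyl-CoA (Pcca, Pccb) breakdown, which end in the same mitochondrial acyl-CoA pool, went in both directions. From CV to EN, Ivd fell by 1.55 on the log2 scale (SE 0.10) and Pcca by 2.20 (SE 0.16), whereas Pccb, the partner subunit of Pcca, rose by 2.30 (SE 0.06), from 50.2 CPM in CV and 120.2 in ENR to 247.0 in EN. These genes were picked after their values were seen, with edgeR adjusted p-values under the threshold of 0.01 for each.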
